A study of Homo sapiens with 3 samples.

Results

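The 77 genes described here encode mitochondrial ribosomal proteins. They are the protein-coding genes of the RefSeq GRCh38 table whose symbol is MRPL or MRPS followed by a number, out of 20037 protein-coding genes on the assembled chromosomes. The study mapped where SOX4, a transcription factor of the SRY-related family, sits on chromatin. It did so by immunoprecipitation and sequencing (ChIP-seq) from BT549, a long-established line of human triple-negative breast cancer cells. All 3 libraries belong to 1 group: BT549 cells at passage 5, fixed with DSG and formaldehyde and precipitated with the same SOX4 antibody, with UT and a replicate number in their titles. The labels name no second condition, do not say what UT means, and do not state that cultures were separate, so the spread between libraries may be technical. No input or IgG library was used here.

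Mitochondrial ribosomes translate the few messenger RNAs made from mitochondrial DNA, which encode core subunits of the respiratory chain. All of their proteins are encoded in the nucleus, made in the cytosol and imported. Some descend from bacterial ribosomal proteins and others were acquired later, and the systematic names in the table give this origin. A name starting with u marks a protein found in all kinds of ribosome, b one shared with bacteria, and m one specific to mitochondria. The letter L or S then gives the large subunit, which joins amino acids, or the small subunit, which reads the messenger. By these names, or by the symbol for MRPS24 and MRPS28, which have none in the table, 51 of the 77 genes encode large-subunit proteins and 26 small-subunit proteins. MRPS30 (mL65) and MRPS18A (mL66) count as large despite their symbols.

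Each library came as a list of peak summits of 1 bp, and the lists of replicates 1, 2 and 3 held 1368, 1713 and 4430. Each summit carries a score from the authors, on a −log10 scale of p or q values, which is used here only to rank summits within their own list. The number of reads behind the lists is unknown. A gene was counted as having a summit when one lay within 5 kb of either of its ends. Summits no more than 200 bp apart were chained into a region across libraries, called reproducible when at least 2 libraries contributed.

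SOX4 summits lay near 22 of the 77 mitochondrial ribosomal protein genes (28.6%), against 17.8% of all coding genes. Replicate 3 gave 19 of them (24.7%, against 15.7% of coding genes), replicate 1 gave 8 (10.4%, against 3.69%) and replicate 2 gave 3 (3.90%, against 3.36%). The share was 13.0% ± 10.6 (SD, n = 3 libraries) for these genes and 7.59% ± 7.05 for coding genes, an SD that spans lists of very different length. Within each library the share was above that of coding genes, and in replicate 2 it was close to it. A reproducible region lay near 4 genes (5.19%, against 2.97%): MRPL57, MRPS28, MRPL13 and MRPS16. With 1 group of samples there is no contrast to test, so these shares stand as a description.

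Chromosome 8, which is dense in summits in these libraries, holds 3 of the 77 genes. Without them, 20 of 74 genes had a summit of any library (27.0%, against 16.9% of coding genes outside that chromosome). The count in replicate 1 was then 6 (8.11%, against 3.31%) and in replicate 3 it was 17 (23%, against 14.9%). In replicate 2 it was 1 (1.35%), below the 2.85% of coding genes. Only MRPL57 and MRPS16 kept a reproducible region (2.70%, against 2.53%). The share was thus above that of coding genes with and without chromosome 8 for any library and for replicates 1 and 3. For replicate 2 it passed from above to below, and for reproducible regions it came close to that of coding genes.

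The summits that reached these genes were close to them, as was usual: of coding genes, 3567 were reached at 5 kb and 3025 at 1 kb. At a limit of 1 kb in place of 5, 21 of the 77 were reached (27.3%, against 15.1% of coding genes), and 14 of these by a summit within 200 bp. The remaining gene of the 22 was MRPL24, whose summit lay 1788 bp from its end. The next gene outwards was MRPL44, at 6662 bp. In replicate 3, the number of genes reached went from 10 at 200 bp to 18 at 1 kb and 19 at 5 kb. The shares were 13.0% at 200 bp (6.05% of coding genes) and 23.4% at 1 kb (13.3% of coding genes). From 5 to 100 kb the shares drew closer, from 24.7% of these genes and 15.7% of coding genes to 46.8% and 41.8%.

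**Figure D1:**
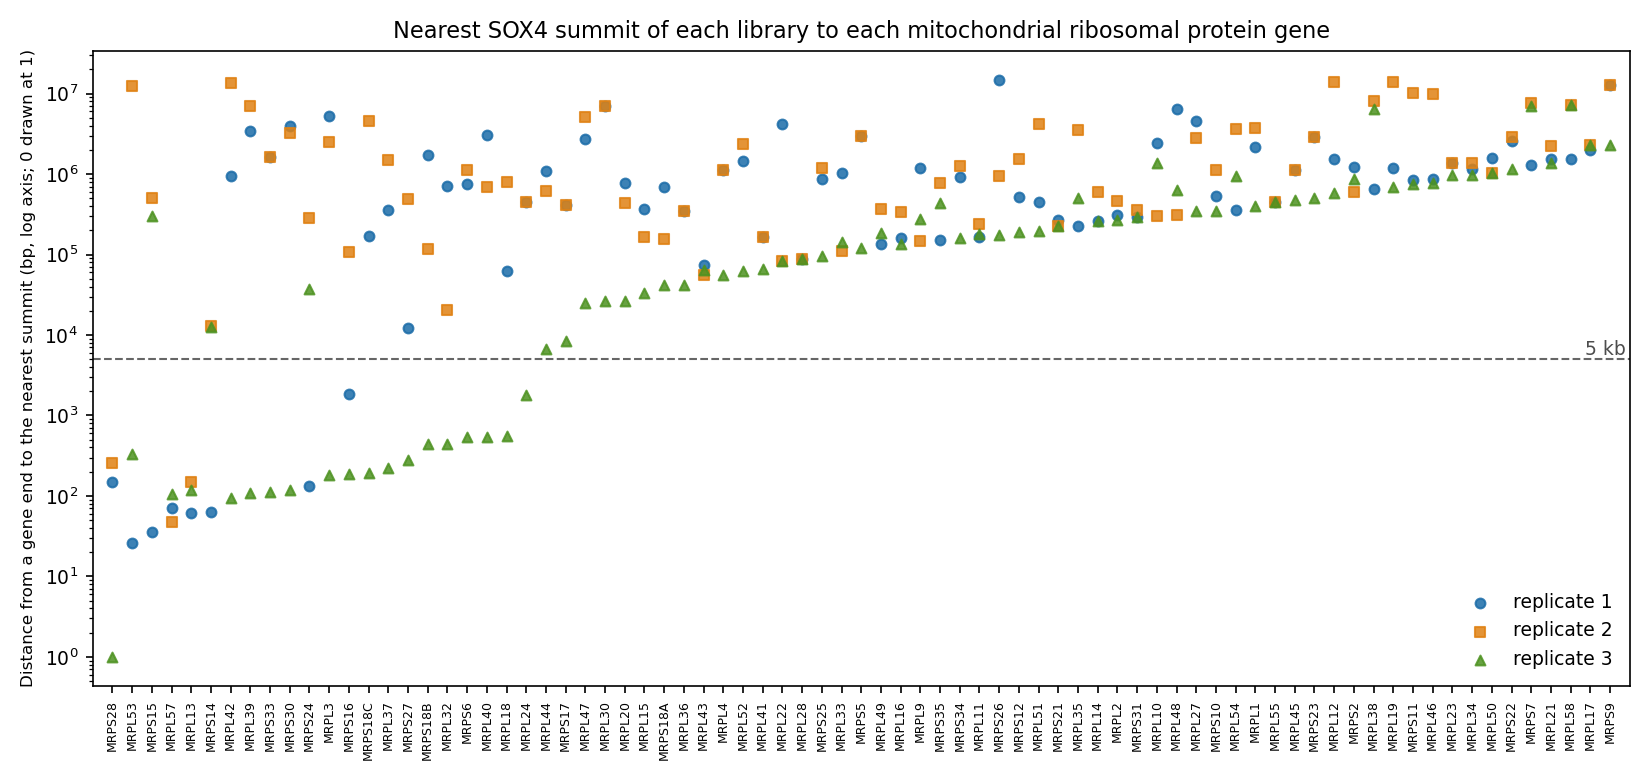
Distance from either gene end to the nearest summit of each library (log axis, bp) for all 77 genes in order of their smallest distance; points are single summits and the dashed line marks 5 kb. Points of replicate 3 make up most of those below the line, and only MRPS28, MRPL57 and MRPL13 have all 3 libraries there.

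**Figure D2:**
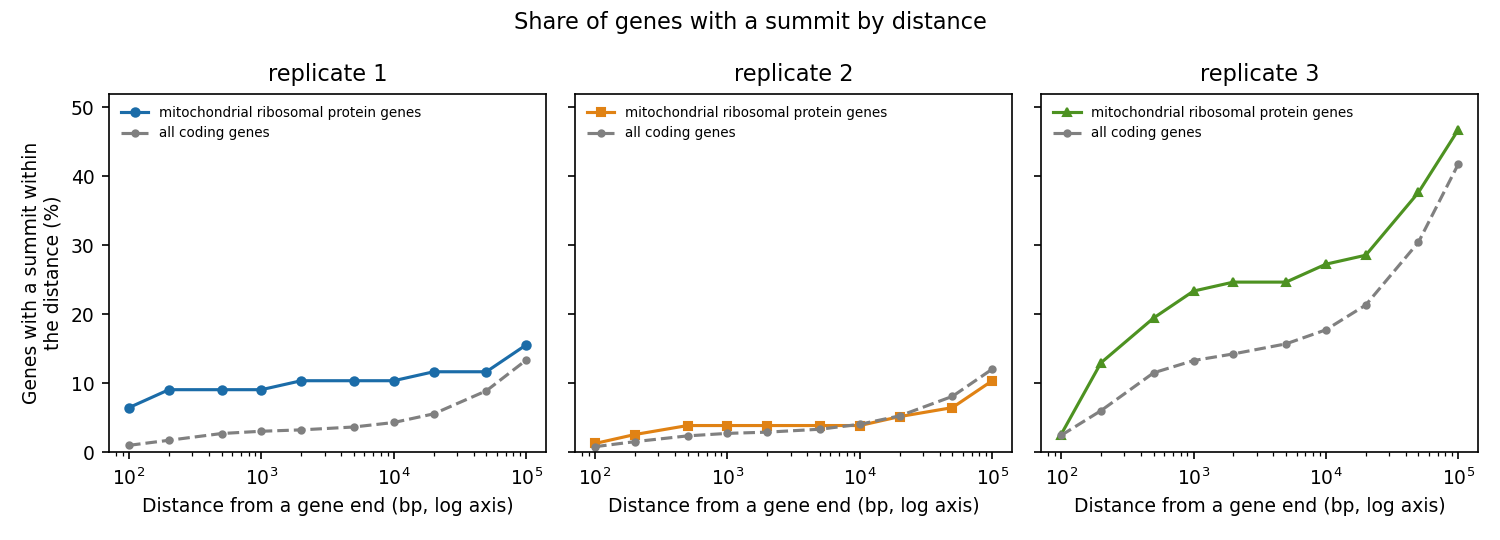
Percentage of genes with a summit within a given distance of a gene end (log axis, bp), for the 77 genes (solid) and all 20037 coding genes (dashed), 1 panel per library. In replicates 1 and 3 the solid line lies above the dashed one at 5 kb (10.4% against 3.69% and 24.7% against 15.7%), and in replicate 2 the lines nearly meet (3.90% against 3.36%).

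MRPL57, which encodes the mitochondria-specific large-subunit protein mL63, had the highest-ranked site. It lies on chromosome 13 from 21176658 to 21179084 on the forward strand. Its summits in replicates 1, 2 and 3 were at 21176588, 21176610 and 21176764, which is 70 and 48 bp before the start and 106 bp after it. Their scores of 31.2, 25.6 and 10.6 stood above 96.3%, 95.3% and 93.9% of the summits in their lists. All 3 libraries were therefore high at this gene, and their summits spanned 176 bp. SKA3, a kinetochore gene, starts on the opposite strand 106 bp upstream of MRPL57, and the replicate 1 summit was 36 bp from the SKA3 start. The site thus belongs to both genes by position.

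The stretch between the starts of SKA3 and MRPL57 carries the summits of replicates 1 and 2 and is shown for that reason, with the 11 bases centred on each summit in capitals. It is the RefSeq sequence of GRCh38.p14, written 5′ to 3′ on the forward strand, from the base after the SKA3 start to the last base before the MRPL57 start (chr13:21176553-21176657). The summit bases are numbers 36 and 58 of the 105.
MRPL57: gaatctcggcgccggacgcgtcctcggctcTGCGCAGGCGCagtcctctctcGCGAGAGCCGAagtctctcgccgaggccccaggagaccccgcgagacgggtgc

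Summits upstream of a single start are shown for 3 small-subunit genes, because there no other start lies closer. The sequences are from RefSeq (GRCh38.p14), 5′ to 3′ on the reverse strand from which these genes are read, again with 11 bases around the summit in capitals. MRPS14 is shown at chr1:175023426-175023564, ending at the base before its start, MRPS24 at chr7:43869574-43869724, and MRPS16 at chr10:73252758-73252894.
MRPS14: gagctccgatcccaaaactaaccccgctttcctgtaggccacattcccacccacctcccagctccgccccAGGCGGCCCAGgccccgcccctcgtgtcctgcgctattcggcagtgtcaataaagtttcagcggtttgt
MRPS24: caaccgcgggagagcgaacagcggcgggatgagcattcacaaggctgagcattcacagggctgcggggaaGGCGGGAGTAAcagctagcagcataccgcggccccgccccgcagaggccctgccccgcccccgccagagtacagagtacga
MRPS16: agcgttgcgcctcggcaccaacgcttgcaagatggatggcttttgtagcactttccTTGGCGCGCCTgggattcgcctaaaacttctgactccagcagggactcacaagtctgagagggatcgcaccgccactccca

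MRPS14 encodes uS14m, a protein of the head of the small subunit. Its replicate 1 summit at 175023489 lay 64 bp before the start, with a score of 4.70, above 27.7% of its list. The nearest summits of replicates 2 and 3 were 13.1 and 12.7 kb past the other end of the gene, with scores of 3.46 and 7.25. MRPS24 encodes another small-subunit protein, and its replicate 1 summit at 43869649 lay 132 bp before the start with a score of 4.58. The table also lists a read-through gene there, URGCP-MRPS24. The nearest summits of replicates 2 and 3 were about 283 and 36.9 kb away. Both genes were therefore reached by replicate 1 alone. In both, the GC box CCGCCC, the reverse complement of GGGCGG, occurred on the printed strand: at bases 64 and 85 of the MRPS14 sequence around the summit at base 76, and at bases 104 and 125 of the MRPS24 sequence, past its summit at base 76.

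MRPS16, which encodes bS16m, had a pair of sites. The printed one was a replicate 3 summit at 73252833, 189 bp before the start, with a score of 4.73 (above 29.4% of its list). The reproducible one lay past the other end of the gene, 1859 bp away in replicate 1 (73246990, score 7.24) and 1818 bp away in replicate 3 (73247031, score 12.3). These summits were 265 and 224 bp from the start of DNAJC9, a histone chaperone gene. The replicate 3 score there stood above 95.8% of its list. The reproducible region near MRPS16 is therefore at a neighbour's start, 5613 to 5654 bp from the start of MRPS16. The nearest replicate 2 summit was about 106 kb away.

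The other genes with reproducible regions are both on chromosome 8, for which the promoter table lists no coding start. MRPS28 encodes a small-subunit protein and spans 79918717 to 80030259. Replicate 1 had summits at 80029804 and 80030109 with scores of 4.14 and 4.19, replicate 2 at 80030001 with 6.57 and replicate 3 at 80030259 with 7.35. The last is the end base of the gene, and the region of 455 bp lay wholly inside it. These scores stood above 14.0%, 15.4%, 65.0% and 79.1% of their lists, so all 3 libraries had a summit there and only replicates 2 and 3 ranked it above their medians. The nearest other coding gene was TPD52, 823 to 1278 bp away.

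MRPL13 encodes uL13m and spans 120395437 to 120445150 of the same chromosome. Summits lay at 120445088 in replicate 1 (score 4.79) and 120445032 in replicate 3 (score 6.13), 62 and 118 bp inside the higher-coordinate end. The replicate 2 summit at 120445300 (score 4.65) lay 150 bp outside that end, just too far to join the region of replicates 1 and 3. Replicate 2 had another summit 2335 bp from the other end (score 4.64). MTBP, which encodes a partner of MDM2, has its end 119 to 387 bp from the 3 summits at the higher-coordinate end. MRPL15 (uL15m), the remaining gene of that chromosome, had its nearest summits at 370, 164 and 33.5 kb in replicates 1, 2 and 3.

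MRPL53, which encodes mL53, had summits of 2 libraries that were not joined. Replicate 1 had one at chromosome 2, 74472654, 26 bp after the start with a score of 3.89, and replicate 3 at 74472348, 332 bp after the start with 5.51. They are separated by more than 200 bp, and the nearest replicate 2 summit was at a distance of 12.58 Mb. Joined over gaps of up to 500 bp, they would make MRPL53 the fifth gene with a reproducible region. CCDC142 has an end 178 bp from the replicate 1 summit.

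Of the 77 genes, 3 had a summit of all 3 libraries within 5 kb (MRPL57, MRPS28, MRPL13) and 2 of exactly 2 libraries (MRPL53, MRPS16). Together these 5 are 6.49% of the family, where 3.91% of coding genes had summits of at least 2 libraries. The other 17 rested on 1 library: 14 on replicate 3, 3 on replicate 1 (MRPS14, MRPS24 and MRPS15) and 0 on replicate 2. For coding genes the split can be read from the share left when 1 library was taken out. Without replicate 3 the share fell from 17.8% to 5.75% of coding genes, and from 28.6% to 10.4% of the family. Most genes reached thus rested on replicate 3 alone in both, so this is not a trait of the family. Without replicate 1 the shares were 16.7% of coding genes and 24.7% of the family. MRPS15 encodes uS15m, one of the first proteins to bind the small-subunit RNA. Its replicate 1 summit at chromosome 1, 36464348 lay 36 bp after the start with a score of 6.33, above 53.0% of the list.

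Among the large-subunit genes reached by replicate 3 alone, the highest score was at MRPL3. It encodes uL3m, a protein near the catalytic centre, and its summit at chromosome 3, 131502788 was 183 bp after the start with a score of 7.69, above 82.0% of the list. MRPS30 (mL65) had a summit 117 bp after its start with a score of 5.66, and MRPL42 (mL42) one 93 bp after its start with 4.47. These 3 sites had no end of another coding gene within 5 kb. MRPL39 (mL39), which resembles a threonyl-tRNA synthetase, had a summit 108 bp inside its higher-coordinate end with a score of 3.86, above 9.46% of the list. Its listed start lies 270 bp further in. MRPL24 (uL24m) also has its listed start inside the gene span, and its summit, 1788 bp from the gene end with a score of 4.58, was 160 bp after that start.

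The remaining large-subunit genes of this kind have a neighbour that starts on the opposite strand, 137 to 812 bp upstream. MRPL37 (mL37) had a summit 224 bp after its start with a score of 4.55, and MRPL32 (bL32m), whose protein is matured by a mitochondrial protease, one 442 bp after its start with 4.64. Both sites lay on the side of the ribosomal protein gene, away from CYB5RL and the proteasome gene PSMA2. At MRPL18 (uL18m) and MRPL40 (mL40) the summits lay 557 and 534 bp before the start, with scores of 5.37 and 5.29. Those were 347 bp from the start of the chaperonin gene TCP1 and 278 bp from that of the histone chaperone gene HIRA, each closer than the ribosomal protein gene.

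Small-subunit genes reached by replicate 3 alone gave the same picture. MRPS33 (mS33) had a summit 112 bp after its start with a score of 4.77, and no other coding gene within 5 kb of it. MRPS6 (bS6m) had one 533 bp before its start, with a score of 7.42 that stood above 79.5% of the list. The start of that gene coincides with an end of SLC5A3 in the table. MRPS27 (mS27), a pentatricopeptide-repeat protein gene, had a summit 279 bp before its start (score 6.19), inside the neighbour PTCD2 and 146 bp from its start. MRPS18C (bS18m) had one 194 bp before its start (score 4.35), 19 bp from the start of the helicase gene HELQ. At MRPS18B (mS40) the summit (score 4.37) lay 436 bp past the far end and 8988 bp from the start, 46 bp from the start of the tubulin acetyltransferase gene ATAT1.

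**Figure D3:**
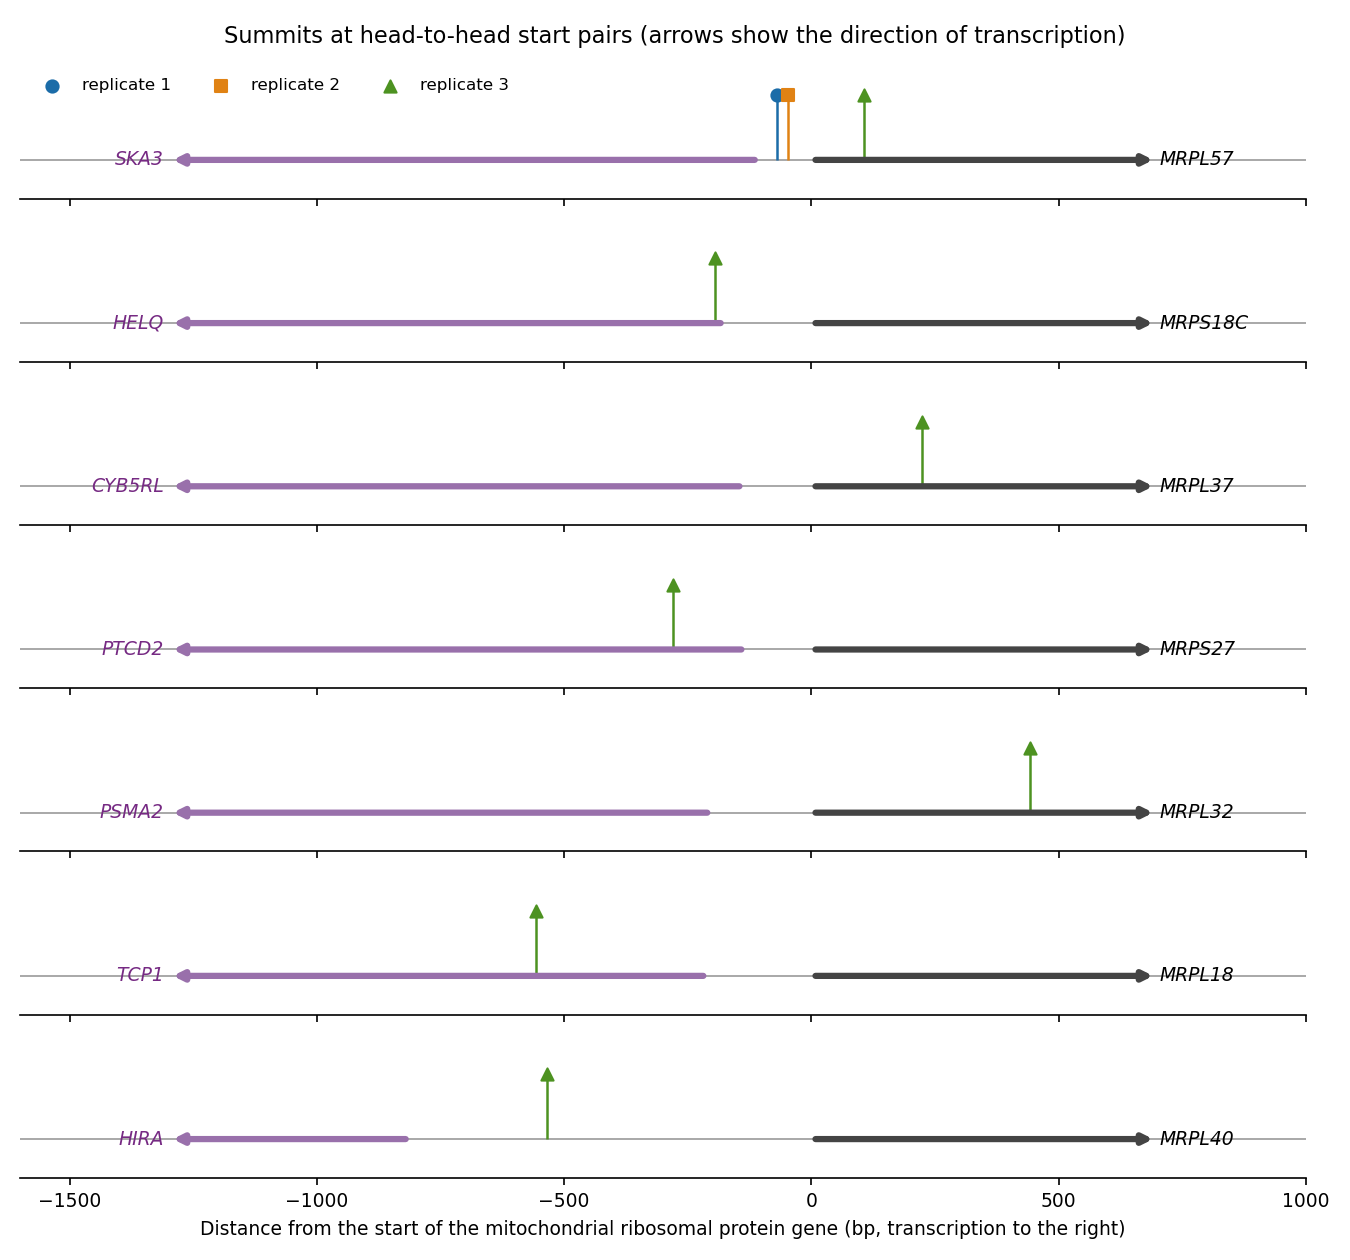
Summits (markers, by library) at 7 mitochondrial ribosomal protein genes whose start faces that of another coding gene; the x axis is the distance in bp from the start of the ribosomal protein gene, and arrows start at each gene's start and point along transcription. MRPL57 is the one pair shown with summits of all 3 libraries, and at MRPS18C, MRPS27, MRPL18 and MRPL40 the summit is nearer to the start of the other gene.

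A start was listed for 69 of the 77 genes. MRPL2, MRPL10, MRPL13, MRPL15, MRPL21, MRPL23, MRPL35 and MRPS28 had none. No coding gene of chromosome 8 had a listed start, and 42.7% of the coding genes there had a summit. Counts by start, pairing, promoter GC and motif therefore leave that chromosome out, for the family and for all coding genes. Of the 20 genes with both a summit and a listed start, 19 had a summit within 1 kb of that start and 15 within 300 bp, and MRPS18B was the exception at 1 kb. A summit lay nearer to the start of another coding gene in 7 of the 20 (MRPL18, MRPL40, MRPL57, MRPS16, MRPS18B, MRPS18C and MRPS27), and in 5 of these that held for every summit. An end of another coding gene lay within 5 kb of a summit of 16 of the 22 genes. The exceptions were MRPL3, MRPL39, MRPL42, MRPS14, MRPS30 and MRPS33. These counts by start and by neighbour were not made for all coding genes, so they do not show a trait particular to the family.

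Paired starts were common in the family. An opposite-strand coding start lay within 1 kb of the start in 23 of the 69 genes (33.3%), against 13.6% of coding genes with a listed start. Of these 23 paired genes, 8 had a summit near either gene end (34.8%), and of the 46 unpaired ones 12 did (26.1%). Among the 8, MRPS18B had its summit past the far end, 8988 bp from its paired start. Among all coding genes the shares were 30.2% of the paired and 16.2% of the unpaired. Pairing thus moved with the presence of a summit in the whole table, and its part in the family's share of 28.6% was not tested.

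By subunit, 10 of 26 small-subunit genes (38.5%) and 12 of 51 large-subunit genes (23.5%) had a summit, against 17.8% of coding genes. By origin, a summit lay near 6 of 26 genes of universal proteins (23.1%), 4 of 18 of those shared with bacteria (22.2%) and 10 of 31 of those specific to mitochondria (32.3%). MRPS24 and MRPS28 both had one. Genes with and without a summit had nearly the same median length (8.64 and 8.59 kb) and similar promoter GC content (medians of 58.8% and 61.7%). All coding genes had a median length of 24.1 kb and a median promoter GC of 62.7%. Coding genes with a summit had medians of 34.75 kb and 65.0%, and those without one 22.1 kb and 62.0%.

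None of the 8 genes on chromosome 17, 7 on chromosome 11 or 4 on chromosome 19 had a summit, where 8.64%, 12.3% and 7.72% of coding genes did. On chromosome 7, 3 of 4 had one (MRPS33, MRPS24 and MRPL32), against 19.1% of coding genes there. Chromosome 1 had 4 of 8 (23.8% of its coding genes) and chromosome 9, where 24.3% of coding genes had a summit, had 0 of 3. Chromosome 21 had 2 of 2 (15.1% of its coding genes) and chromosome 22 had 1 of 1 (7.98%). None had one on chromosomes 14, 15, 16 or 20 (20.7%, 9.56%, 12.6% and 20.3%), which hold 1 or 2 each. The chromosomes not given here hold genes of the family with and without a summit, or no gene of the family. Each count rests on few genes.

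The 55 genes without a summit were mostly far from any. The nearest summit of any library lay between 5 and 10 kb for 2 of the 55, up to 50 kb for 6, up to 100 kb for 7, up to 1 Mb for 33 and beyond that for 7. MRPL44 (mL44) stands apart from the other 54. Its replicate 3 summit (score 4.77) lies 6662 bp from the gene's lower end but 53 bp after its listed start, because the gene span in the table begins upstream of that start. The next were MRPS17 (uS17m), 8.50 kb from a replicate 3 summit with a score of 3.37, and MRPL47 (uL29m), 25000 bp from one with 6.23.

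Scores near these genes lay on both sides of the list medians. Of the 33 summits within 5 kb, 20 scored below the median of their list and 4 above 90% of it. Those 4 were the MRPL57 summits of the 3 libraries and the replicate 3 summit near the start of DNAJC9, 1818 bp from MRPS16. A median by definition has about as many summits below it as above. The counts were not made for summits near all coding genes, so they do not show a trait of the family. The median score near these genes was 4.70, 5.61 and 5.33 in replicates 1, 2 and 3, against 6.12, 5.57 and 5.58 in the full lists. With summits at or above the list median alone, 9 genes kept a summit (11.7%, against 9.25% of coding genes). With the lists cut to equal length, 10 did (13.0%, against 8.37%), and replicate 3 then reached 5 genes in place of 19.

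**Figure D4:**
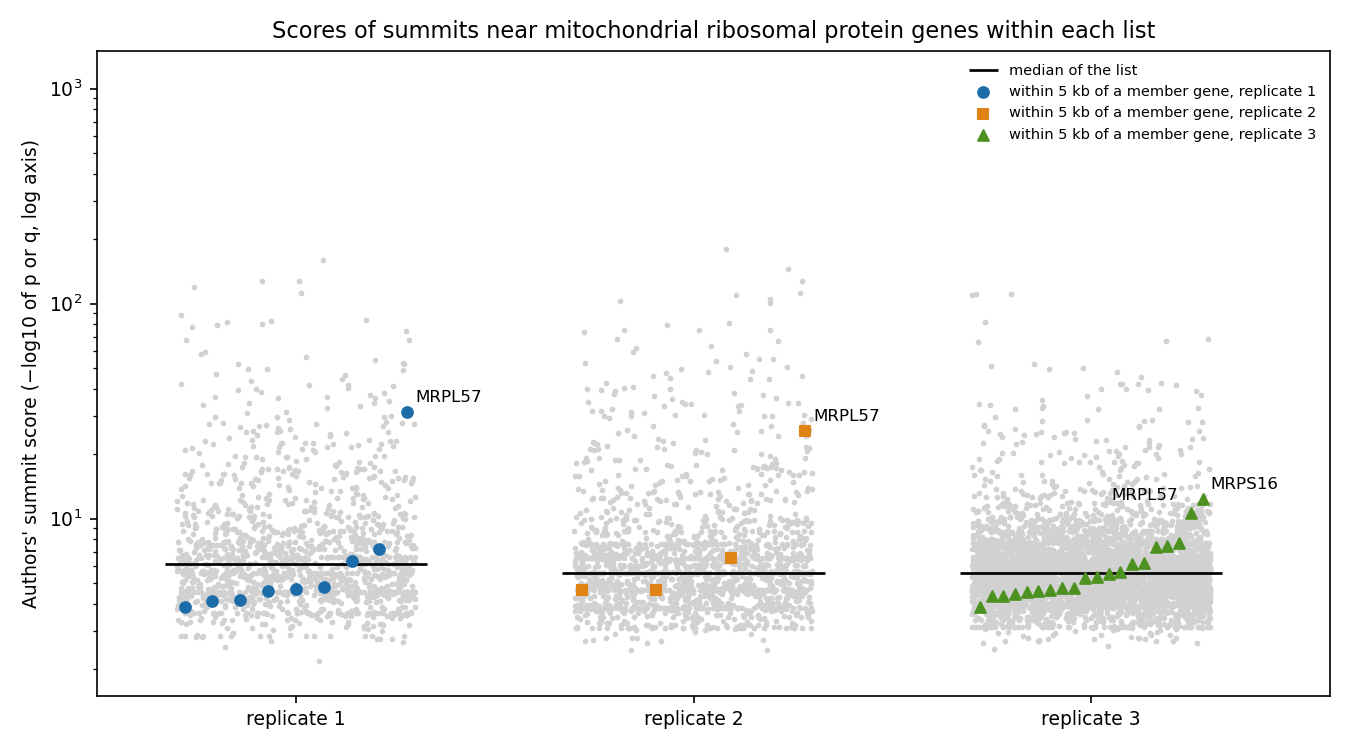
Authors' score of every summit (grey; log axis) in each list, with the list median as a line and the 33 summits within 5 kb of the 77 genes in colour, ordered left to right by score within a list (horizontal position has no other meaning). Most coloured points lie at or below the medians of 6.12, 5.57 and 5.58, and the named ones stand above 90% of their list.

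The promoter windows of the family, from 250 bases before to 50 after the start, were searched for 8 motifs on both strands. The YY1 motif AAGATGGC was in 20 of 69 windows (29.0%), against 3.91% of all coding promoters in the table, and the ETS motif CCGGAAG in 29 (42.0%, against 14.2%). The NRF1 core GCATGCGC was in 6 (8.70%, against 4.26%), the GC box GGGCGG in 42 (60.9%, against 58.5%) and the NFY motif CCAAT in 20 (29.0%, against 36.4%). The cyclic-AMP element TGACGTCA was in 0 (2.59% of all). Of the SOX cores, AACAAT was in 5 windows (7.25%, against 7.06%) and AACAAAG in 0 (against 4.14%). The letters AACAAT on the reverse strand read ATTGTT, and no motif of the list contains another.

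Between genes of the family with and without a summit the motifs were spread as follows. Windows were sorted by whether the gene had a summit within 5 kb of an end, so the window itself need not hold it. The YY1 motif was in the windows of 6 of 20 genes with a summit (30.0%) and 14 of 49 without (28.6%). The ETS motif was in 6 (30.0%) and 23 (46.9%). AACAAT was in the windows of 2 genes with a summit, MRPL42 and MRPS18B, and of 3 without. The summits of MRPL42 and MRPS18B, 93 bp after and 8988 bp from their starts, lay outside those windows. The YY1 and ETS motifs were thus in windows of both kinds of gene, and the absence of a SOX core says only that these letters are not in this window.

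Of 66 other genes of mitochondrial translation in 4 lists, 24 had a summit of any library (36.4%, against 28.6% of the 77 genes and 17.8% of coding genes). The lists gave 50.0% of mitoribosome proteins with other symbols, 30.8% of translation factors, 28.6% of assembly and RNA factors and 47.4% of aminoacyl-tRNA synthetases. A reproducible region lay near 2 of the 66 genes, where 2.97% of coding genes had one. Mitoribosome proteins with other symbols had 3 of 6, all in replicate 3. They were DAP3, which encodes a GTP-binding small-subunit protein, AURKAIP1 and KGD4. KGD4, formerly named as a small-subunit protein and now counted with a metabolic enzyme complex, had a summit 315 bp from its end with a score of 11.1. It was kept among the 6 and the 66, so the shares of 50.0% and 36.4% include it. Translation factors had 4 of 13, among them the elongation factor gene GFM1 in replicate 2 at 178 bp and the initiation factor gene MTIF3 in replicate 3 at 129 bp. Mitochondrial aminoacyl-tRNA synthetases had 9 of 19, of which 8 were reached by replicate 3 and KARS1 by replicate 1. The genes named here, and TFAM below, were picked as examples after their values were seen.

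Assembly and RNA factors had 8 of 28 found in the table, including TFAM, which packages mitochondrial DNA, in replicate 3 at 145 bp. The genes with reproducible regions were MTERF3 and MRM2. MTERF3, a mitochondrial transcription termination family gene on chromosome 8, had summits at 111, 77 and 203 bp with scores of 3.89, 7.54 and 4.39 in replicates 1, 2 and 3. MRM2, a ribosomal RNA methyltransferase gene, had them at 1224 and 1272 bp in replicates 1 and 2, with scores of 13.4 and 7.44.

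For a summit of any library, the mitochondrial ribosomal share lay between those of the families most like it, as it did in replicate 3. In replicate 1 it was the highest of these families (10.4%, against 10.1% of cytosolic ribosomal and 4.71% of respiratory chain genes), and in replicate 2 the lowest (3.90%, against 4.49% and 4.71%). Cytosolic ribosomal protein genes had a summit in 35 of 89 (39.3%), with 9, 4 and 31 in replicates 1, 2 and 3. Nuclear genes of the respiratory chain, whose products work with those translated by mitochondrial ribosomes, had one in 14 of 85 (16.5%), with 4, 4 and 12. Reproducible regions, found near 2.97% of coding genes, lay near 5 of 89 cytosolic genes (5.62%; RPS19 in all 3 libraries, RPS20, RPS6, RPL41 and RPS15A in 2) and 3 of 85 respiratory chain genes (3.53%; NDUFB9 in all 3, ATP5PB and NDUFB6 in 2). The mitochondrial ribosomal protein genes had 4 of 77 (5.19%). RPS20 and NDUFB9 are on chromosome 8. In all of these lists replicate 3 gave most of the genes, and no difference between lists was tested.

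**Figure D5:**
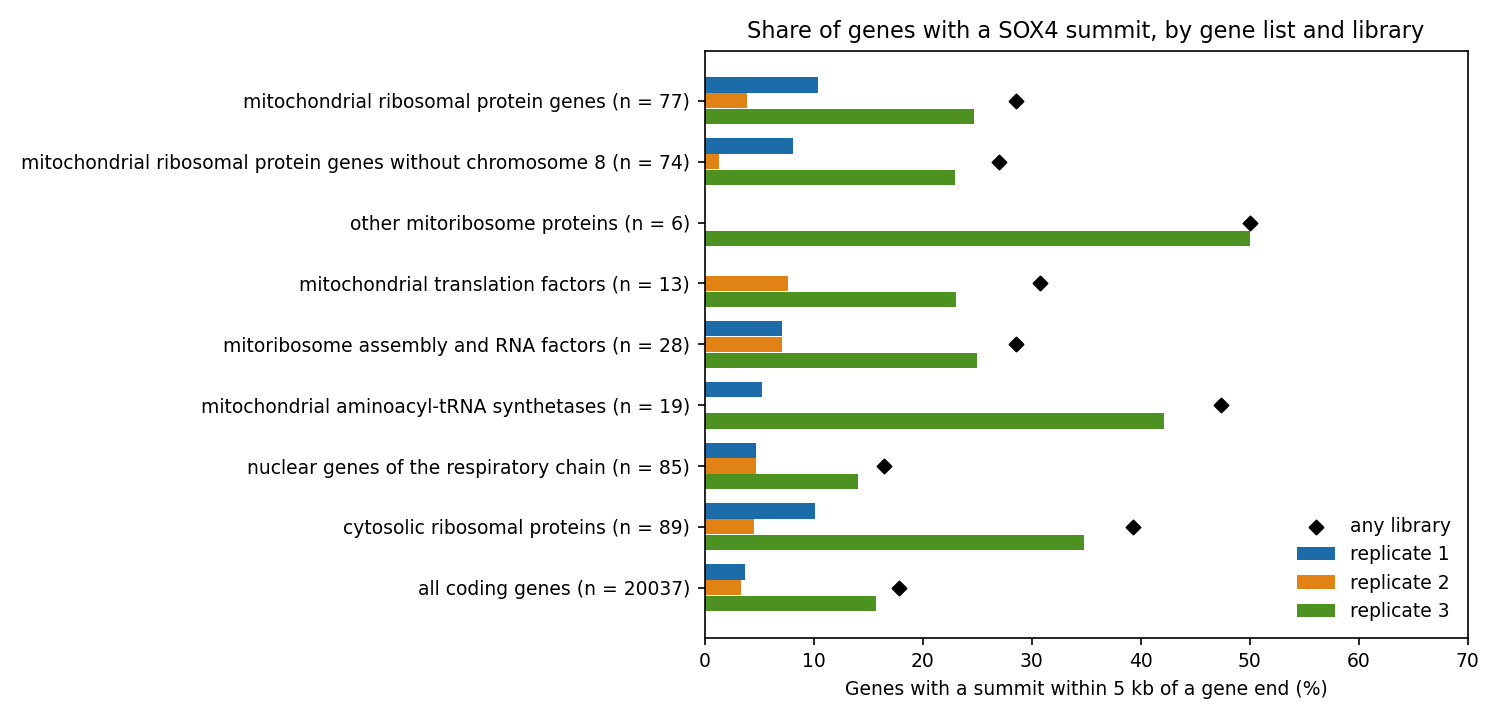
Percentage of genes with a summit within 5 kb of a gene end, by gene list (rows, with n genes) and library (bars), with the share for any library as a diamond. The 77 mitochondrial ribosomal protein genes reach 28.6% for any library, between the respiratory chain genes at 16.5% and the cytosolic ribosomal protein genes at 39.3%, with all coding genes at 17.8%.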

How the data were processed

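Per the submitters' processing notes, the authors used BWA, SAMtools and MACS2, with no versions. They deposited 1 list of 1-bp summits per library, each with a score on a −log10 scale (whether of p or q values is not given in the sources used here). The notes name hg19, but the positions fit the RefSeq table of GRCh38.p14: on chromosome 20 summits reach 64088674, past that chromosome's end in hg19. Positions are 1-based. Reads, peak widths and a control library were not used here.

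Distances run from a summit to the nearer gene end, or to a start in the RefSeq promoter table, which matched 69 of the 77 genes and 15843 of 20037 coding genes. That promoter table lists no coding start on chromosome 8. The distance of a joined region is taken from its midpoint. Where a gene had several promoter windows, motifs were searched in the one listed first. The 4 mitochondrial lists lost 1 symbol that the table does not hold. All members with a summit within 5 kb are named, as are those of chromosome 8 and the 3 next nearest, and from other lists those with a reproducible region. Members, lists and named-gene rule were chosen with earlier results of these data known. Python 3.11.15, NumPy 2.4.6 and pandas 2.3.3 were used, and the counting was tested on simulated summits.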

Additional observations from a re-analysis of the deposited data

How the results depend on the processing

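The count of 22 genes near a summit of any library became 9 with summits at or above the list median score (11.7%, against 9.25% of coding genes), 10 with lists of equal length (13.0%, against 8.37%), and 8 to 22 when 1 library was left out (8 without replicate 3, 10.4% against 5.75% of coding genes). The count of 4 near a reproducible region fell below the share of coding genes in 2 settings: 1 gene by distance to a start (1.45%, against 2.64%) and 1 without replicate 1 (1.3%, against 1.53%). It was 2 with scores at or above the median (2.6%, against 1.27%), 2 without chromosome 8 genes (2.70%, against 2.53%) and 2 when all 3 libraries were required (2.6%, against 0.739%). Leaving out 1 library gave 1 to 4 (2 without replicate 3, 2.6% against 1.06%). Replicate 1, with 8 genes, gave 5 by distance to a start (7.25%, against 3.50%) and 3 with scores at or above the median (3.90%, against 1.66%). Replicate 2, with 3 genes, was below coding genes at 50 kb (5 genes, 6.49% against 8.12%), by distance to a start (1, 1.45% against 2.94%) and without chromosome 8 genes (1, 1.35% against 2.85%). It was also below at 10 kb (3 genes, 3.90% against 4.08%) and with the gene body counted as near (3, 3.90% against 4.53%). Replicate 3, with 19 genes, gave 29 at 50 kb (37.7%, against 30.4%), 8 with scores at or above the median (10.4%, against 8.02%) and 5 with lists of equal length (6.49%, against 4.94%). The start-based counts leave out the 8 genes with no listed start, MRPS28 and MRPL13 among them, and all coding genes of chromosome 8. The other settings stayed within 1.5 times of the reported counts: 10 of 13 for any library, 11 of 17 for reproducible regions, and 7, 6 and 6 of 9 for replicates 1, 2 and 3. Counting starts beside gene ends was added after the data were seen and gave 23 and 4. No paired analysis was possible because the series has 1 group. The counts are small, and the unknown read depth limits what a missing summit can show.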

Other observations

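The sequence between SKA3 and MRPL57 holds TCTCGCGA and its reverse complement TCGCGAGA, overlapping, at bases 49 and 51 of the printed run. The replicate 2 summit lies within the second, the replicate 1 summit is 13 bp from the first and the replicate 3 summit 154 bp from the second. This motif was chosen after the sequence was seen. Counted on both strands of the promoter windows, it was present in 277 of 15843 coding genes (1.75%), in 165 of 2867 with a summit of any library within 5 kb (5.76%) and in 76 of 435 with a reproducible region (17.5%). The SOX core AACAAT was in 7.06% of all coding promoters and 6.21% of those with a reproducible region, and AACAAAG in 4.14% and 4.83%. Among the mitochondrial ribosomal protein genes TCGCGAGA was in the windows of 2 of 20 genes with a summit, MRPL57 and MRPS14, and of 0 of 49 without. The motif was read from the MRPL57 sequence, so that gene's place among the 2 was fixed in advance and only MRPS14 is a separate case. In MRPS14 the motif starts 145 bases before the start, 74 bp from the replicate 1 summit. No test was made of these shares.

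Mitochondrial ribosomal proteins have many pseudogenes, copies that sequence alignment can mistake for the gene. Of 106 pseudogenes with MRPL or MRPS symbols, 2 had a summit within 5 kb (1.89%), MRPS18CP3 on chromosome 8 and MRPL35P2 on chromosome 10. Of all 16845 listed pseudogenes, 506 did (3.0%). Of 7 long non-coding RNA genes named after family members, 1 had a summit, MRPS30-DT.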
